A study of Saccharomyces cerevisiae with 22 samples.

Results

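The 31 genes described here make or esterify ergosterol, the main sterol of yeast membranes, or regulate or transport it. They were chosen by systematic name and were followed in transcription start profiles of Saccharomyces cerevisiae (W303 background). The deposited tables hold 5195 start clusters and name 3872 genes, and 40 of these clusters belong to 29 of the 31 sterol genes. A single gene of the reference annotation is named for 4322 of the clusters. Shares of all clusters below also count the others, such as intergenic ones. By role, 9 members belong to the mevalonate steps, 11 to the early sterol steps, 5 to the late sterol steps, 3 to ester formation, 2 are transcription factors and 1 is a sterol-binding protein. The profiles come from TL-seq, which counts capped RNA 5′ ends, so a count stands for an RNA end and does not grow with transcript length.

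Cells with mutated Swi/Snf were compared with complemented wild types, and DTT-treated cells with untreated ones. Swi/Snf is a complex that moves nucleosomes with the energy of ATP, Snf2 is its ATPase subunit and Swi3 one of its scaffold subunits. All 5 genotypes lack the native SWI3 or SNF2 gene and carry an integrated LEU2-marked copy in its place. The copy is swi3-E815X, snf2-W935R or snf2-Q928K in the mutants, and SWI3 or SNF2 in the wild types. Cultures in YPD, a rich medium, were split, and 1 flask received 5 mM dithiothreitol (DTT) for 1 h while the other stayed untreated. DTT reduces disulphide bonds and so unfolds proteins in the endoplasmic reticulum, where most sterol enzymes sit. Each genotype and treatment has 2 biological replicates, collected on separate days. The other 2 of the 22 libraries, SWI3 controls made without cap removal, were not analysed here.

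Ergosterol synthesis starts from acetyl-CoA. The mevalonate steps build isoprenoid units and farnesyl pyrophosphate, a branch point that also feeds dolichol, haem A and ubiquinone synthesis and protein prenylation. The early sterol steps join farnesyl units into squalene, close the rings and remove methyl groups, with several reactions that need oxygen and haem. The late steps set the side chain and double bonds of ergosterol. Excess sterol is esterified and stored in lipid droplets. In yeast the zinc-cluster factors Upc2 and Ecm22 act on many of these genes when sterol is low.

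A start cluster is a group of neighbouring start positions, and the main cluster of a gene is the one with the most counts over the 7 tables. Judged by the middle of each cluster, 31 of the 40 member clusters lie upstream of the annotated coding start and 9 inside the coding region. Members with a second cluster number 7, and they give 11 pairs of a secondary and a main cluster. Distances are from the middle of a cluster to the coding start, and coordinates are of the R64 (sacCer3) build. The only cluster of ERG13 (YML126C) lies inside its coding region, at chrXIII:20461-20488 and 60.5 bp past the annotated start, and the first ATG after it is in frame at codon 31. Clusters with their middle upstream of the coding region lay between 22.5 and 207 bp from it. Those of ERG10 and ERG4 and the main one of NCP1 reach past the coding start. No cluster was assigned to UPC2 (YDR213W) or to HES1 (YOR237W), an oxysterol-binding protein, and none lies on the sense strand inside either gene or within 1000 bp upstream.

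The sterol response element TCGTATA, the sequence bound by Upc2 and Ecm22, was searched on both strands in the 300 bp before each main upstream cluster. It was found for 5 of 28 members, or 17.9%, and for 146 of 3373 genes of all kinds, or 4.33%. The 5 are ERG1, ERG2, ERG3, ERG8 and ERG28. Other sequences were searched in the same way, on either strand and at any distance within the window. TATAAA, the letters of a TATA element, stood in 15 of 28 member windows (53.6% against 45.5% of all). For ERG5, ERG6, ERG7, ERG24, ERG26 and ECM22 it stood only on the strand opposite to the gene. ATTGTT, the core of sites of the repressor Rox1, stood in 13 (46.4% against 32.1%). CATGTG, the core of inositol-responsive sites, stood in 2 (7.14% against 9.25%). CAGCGTG, a sequence bound by the unfolded-protein factor Hac1, stood in none (against 1.72%). A match is a description of the letters and not a mapped site.

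The windows of 200 bp before the most upstream cluster are shown for 4 members. These members had TCGTATA in the search before main upstream clusters and passed a test in at least 1 comparison. ERG13 was outside that search because its only cluster lies inside the coding region. The 200 bp before that cluster also hold the reverse complement TATACGA, and ERG13 passed in wild type with DTT, but its window is not shown. The windows shown were read 5′ to 3′ on the strand of the gene from the RefSeq R64 reference, which is not the W303 strain used here. Capitals mark TCGTATA or its reverse complement TATACGA. They are for ERG1 at chrVII:848630-848829 (minus strand), ERG28 at chrV:238223-238422 (minus strand), ERG2 at chrXIII:667294-667493 (plus strand) and ERG3 at chrXII:253473-253672 (plus strand).
ERG1: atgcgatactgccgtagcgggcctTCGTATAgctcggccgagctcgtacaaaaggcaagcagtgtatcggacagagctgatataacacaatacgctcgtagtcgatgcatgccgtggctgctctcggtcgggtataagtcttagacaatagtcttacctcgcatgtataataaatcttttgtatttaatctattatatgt
ERG28: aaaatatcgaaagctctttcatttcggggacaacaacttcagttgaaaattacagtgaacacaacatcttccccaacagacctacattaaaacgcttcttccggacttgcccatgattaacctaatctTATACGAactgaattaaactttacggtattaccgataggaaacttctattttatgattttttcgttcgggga
ERG2: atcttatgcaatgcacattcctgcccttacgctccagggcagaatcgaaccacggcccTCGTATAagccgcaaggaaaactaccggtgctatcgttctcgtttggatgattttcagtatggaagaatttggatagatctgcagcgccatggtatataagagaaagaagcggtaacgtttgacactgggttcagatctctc
ERG3: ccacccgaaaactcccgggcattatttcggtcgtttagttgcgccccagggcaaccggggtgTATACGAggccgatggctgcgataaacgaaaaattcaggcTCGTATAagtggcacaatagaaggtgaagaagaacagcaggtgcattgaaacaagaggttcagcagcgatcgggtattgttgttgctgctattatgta
The element nearest the main cluster lay 176 bp upstream of it in ERG1, 72 bp in ERG28, 142 bp in ERG2 and 209 bp in ERG3. ERG3 is the one of the 4 with a pair of elements, the other 249 bp upstream.

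The authors' deposited tables give, for each cluster and comparison, a mean normalized count, a log2 fold change with its standard error (SE) and an adjusted p-value, with no values per library. A cluster is called higher or lower at an adjusted p under 0.05. Group levels below are mean normalized counts worked out from the deposited means and fold changes and set on the scale of the wild-type table. They carry no spread of their own, and tests stay within a table. The wild-type libraries fall into one set used in the swi3 tables and another used in the snf2 tables, called the swi3-table and snf2-table wild types below. Wild type beside a mutant's level is the set of that mutant's tables. Counts are relative to each library, so a smaller share of the RNA and fewer molecules per cell cannot be told apart. A single base change leaves no mark in start counts, so genotype labels were not checked.

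As a check of the treatment, the cluster of KAR2, an endoplasmic reticulum chaperone, with the smallest SE changed by 3.12 ± 0.29 (log2, SE) with DTT against untreated wild type in the authors' deposited table. The same cluster had −0.09 ± 0.31 in swi3E815X, −1.83 ± 0.37 in snf2W935R and −1.54 ± 0.27 in snf2Q928K against wild type with DTT (authors' deposited tables). Another KAR2 cluster went the other way in both snf2 mutants with DTT, at 5.81 ± 1.14 in snf2W935R and 5.43 ± 1.12 in snf2Q928K (authors' deposited tables). The remaining KAR2 clusters had negative values in both snf2 mutants with DTT. Between the swi3-table and the snf2-table wild types, clusters had a robust SD of 0.362 with DTT and 0.522 untreated (log2, 2554 clusters with a mean count of at least 100 in every table). The median SE over all clusters was between 0.350 and 0.485 in the 7 tables. Member clusters had a median mean count of 658, against 169 over all clusters.

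**Figure D1:**
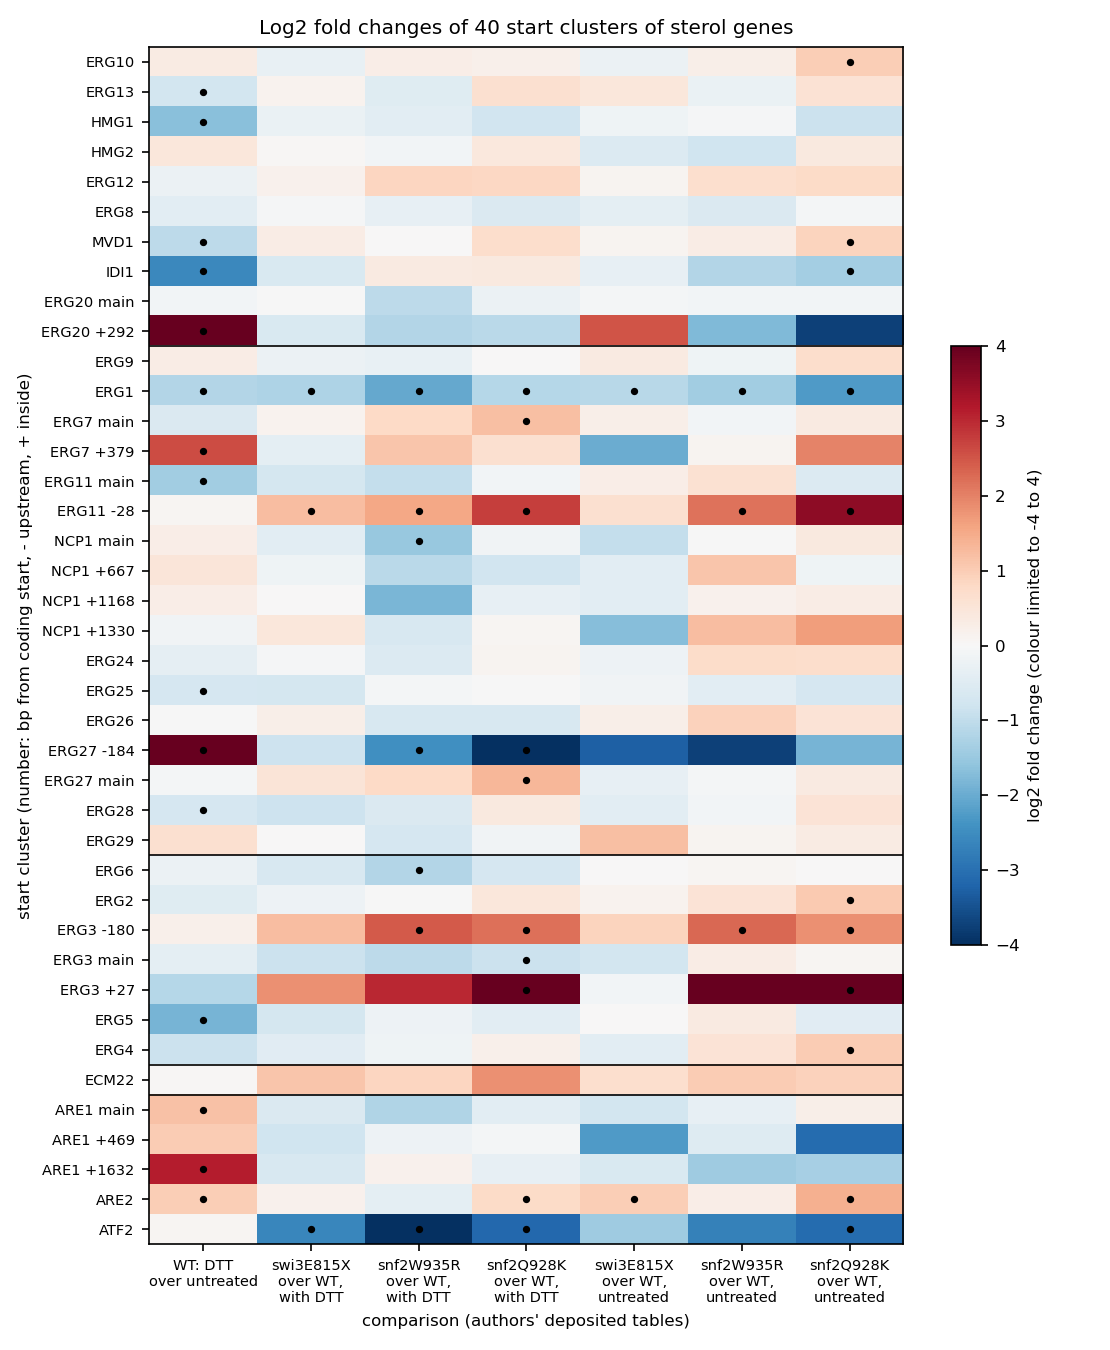
Colour gives the log2 fold change (limited to −4 to 4) of each of the 40 sterol gene clusters (rows, grouped by role) in each of the 7 authors' deposited tables (columns). A dot marks an adjusted p under 0.05, and a number after a gene name is the distance in bp of a cluster from the coding start. The ERG1 row is blue with a dot in all 7 columns.

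With DTT, wild-type cells had fewer 5′ ends at several mevalonate and sterol enzymes, and more at both sterol acyltransferases. In the authors' deposited table, 9 of 40 member clusters (22.5%) were lower, against 17.3% of all clusters, and 6 (15.0%) were higher, against 16.5%. Both shares are near those of all clusters. The 9 lower clusters are all main clusters, while the 6 higher ones are the main clusters of ARE1 and ARE2 and 4 secondary clusters. Over the 29 main clusters the median log2 fold change was −0.35, against −0.00017 over the main clusters of all genes. The counts by step that follow are of main clusters and were not tested as sets. The share of the main clusters of all genes that passed is not given here, so the shares of all clusters stand beside them.

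Of the main clusters of the 9 mevalonate genes, 4 fell with DTT in wild type, none rose, and the median was −0.42. Of all clusters, 17.3% were lower and 16.5% higher. IDI1 (YPL117C), the isomerase of isopentenyl pyrophosphate, had 170 counts with DTT and 1023 untreated, a log2 fold change of −2.59 ± 0.36 (adjusted p = 1.8e-11) in the authors' deposited table. HMG1 (YML075C) encodes one of the HMG-CoA reductases, the rate-limiting enzymes of the pathway, and had 138 counts with DTT and 443 untreated (−1.68 ± 0.31, adjusted p = 1.1e-06, in the authors' deposited table). Its paralogue HMG2 (YLR450W) had 234 counts with DTT and 172 untreated, and its value of 0.45 ± 0.31 did not pass (adjusted p = 0.282, authors' deposited table). MVD1 (YNR043W), mevalonate pyrophosphate decarboxylase, had −1.06 ± 0.24 and ERG13, HMG-CoA synthase, had −0.75 ± 0.28 in the authors' deposited table, and both passed. The DTT response of IDI1 was −1.83 in the swi3-table wild type and −3.18 in the snf2-table wild type, where its untreated levels were 668 and 1376.

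Among the 11 early sterol genes, 4 main clusters fell with DTT in wild type (17.3% of all clusters were lower) and the median was −0.35. ERG11 (YHR007C), lanosterol demethylase and the target of azole drugs, had 2938 counts at its main cluster with DTT and 7778 untreated (−1.40 ± 0.35, adjusted p = 4.4e-04, authors' deposited table). ERG1 (YGR175C), squalene epoxidase, the first oxygen-dependent step, had 6031 counts with DTT and 13482 untreated (−1.16 ± 0.23, adjusted p = 4.0e-06, authors' deposited table). ERG28 (YER044C), which tethers C-4 demethylation enzymes, and ERG25 (YGR060W), the C-4 methyl oxidase, fell by 0.68 ± 0.19 and 0.66 ± 0.23 in the authors' deposited table. The other members of the C-4 demethylation complex did not pass: ERG26 (YGL001C) had −0.01 ± 0.36 and the main cluster of ERG27 (YLR100W) had −0.08 ± 0.18 in the authors' deposited table.

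Of the 5 late genes, 1 fell with DTT in wild type (17.3% of all clusters were lower). It was ERG5 (YMR015C), the C-22 desaturase, with 64.1 counts with DTT and 232 untreated (−1.86 ± 0.32, adjusted p = 1.1e-07, authors' deposited table). ERG4 (YGL012W), the final reductase, had −0.87 ± 0.38 (adjusted p = 0.0631) in the authors' deposited table and did not pass. The median of the late genes was −0.50.

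Of the 3 ester genes, both sterol acyltransferases rose (16.5% of all clusters were higher). ARE1 (YCR048W) had 2439 counts at its main cluster with DTT and 1073 untreated (1.18 ± 0.34, adjusted p = 0.00252, authors' deposited table). ARE2 (YNR019W), known as the main acyltransferase in aerobic cells, had 2428 counts with DTT and 1234 untreated (0.98 ± 0.20, adjusted p = 8.8e-06, authors' deposited table). The alcohol acetyltransferase ATF2 (YGR177C), which acetylates sterols, had 67.7 counts with DTT and 64.5 untreated, with 0.07 ± 0.46 in the authors' deposited table.

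ERG1 was the one member cluster lower in all 6 comparisons of a mutant with wild type, as 12 of all clusters were. With DTT, ERG1 had 2645 counts in swi3E815X, against 6163 in the swi3-table wild type. The snf2 mutants had 1432 (snf2W935R) and 2658 (snf2Q928K) with DTT, against 5890 in the snf2-table wild type. Each mutant level lies below both wild-type levels. Untreated, ERG1 had 5688 counts in swi3E815X, against 12164 in wild type, and 5676 in snf2W935R and 3088 in snf2Q928K, against 14780 in wild type. The log2 fold changes with DTT in the authors' deposited tables were −1.22 ± 0.26 (swi3E815X), −2.04 ± 0.33 (snf2W935R) and −1.15 ± 0.25 (snf2Q928K). Untreated, they were −1.10 ± 0.31 (swi3E815X), −1.38 ± 0.32 (snf2W935R) and −2.26 ± 0.32 (snf2Q928K), and the adjusted p of all 6 in the authors' deposited tables lay between 3.9e-10 and 0.0272. The effect with DTT minus untreated was −0.12 ± 0.40 in swi3E815X (adjusted p = 0.999), −0.66 ± 0.46 in snf2W935R (adjusted p = 0.692) and 1.11 ± 0.40 in snf2Q928K (unadjusted p = 0.00605, adjusted p = 0.187), and none was called. The log2 difference of ERG1 with DTT against untreated was −1.10 in swi3E815X, −1.99 in snf2W935R and −0.22 in snf2Q928K, against −0.98 in the swi3-table and −1.33 in the snf2-table wild type.

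ATF2 lies directly upstream of ERG1 on the same strand, with 405 bp between the coding regions and 199 bp from the end of the ATF2 coding region to the ERG1 cluster. Its own cluster, at chrVII:850492-850566, is a weak one that was lower in 4 of the 6 mutant comparisons. With DTT it had 12.03 counts in swi3E815X, against 73.4 in wild type, and 3.83 in snf2W935R and 6.96 in snf2Q928K, against 62.0 in wild type. Untreated, it had 18.4 counts in swi3E815X, against 49.4 in wild type, and 12.2 in snf2W935R and 9.54 in snf2Q928K, against 79.8 in wild type. All 6 mutant levels lie below both wild-type levels. With DTT the authors' deposited tables give −2.61 ± 0.66 (swi3E815X), −4.01 ± 1.06 (snf2W935R) and −3.15 ± 0.87 (snf2Q928K). Untreated, snf2Q928K had −3.06 ± 0.91 (adjusted p = 0.0161), while swi3E815X at −1.43 ± 0.85 (adjusted p = 0.637) and snf2W935R at −2.71 ± 0.94 (adjusted p = 0.101) did not pass in the authors' deposited tables. Whether the neighbours depend on each other was not tested.

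**Figure D2:**
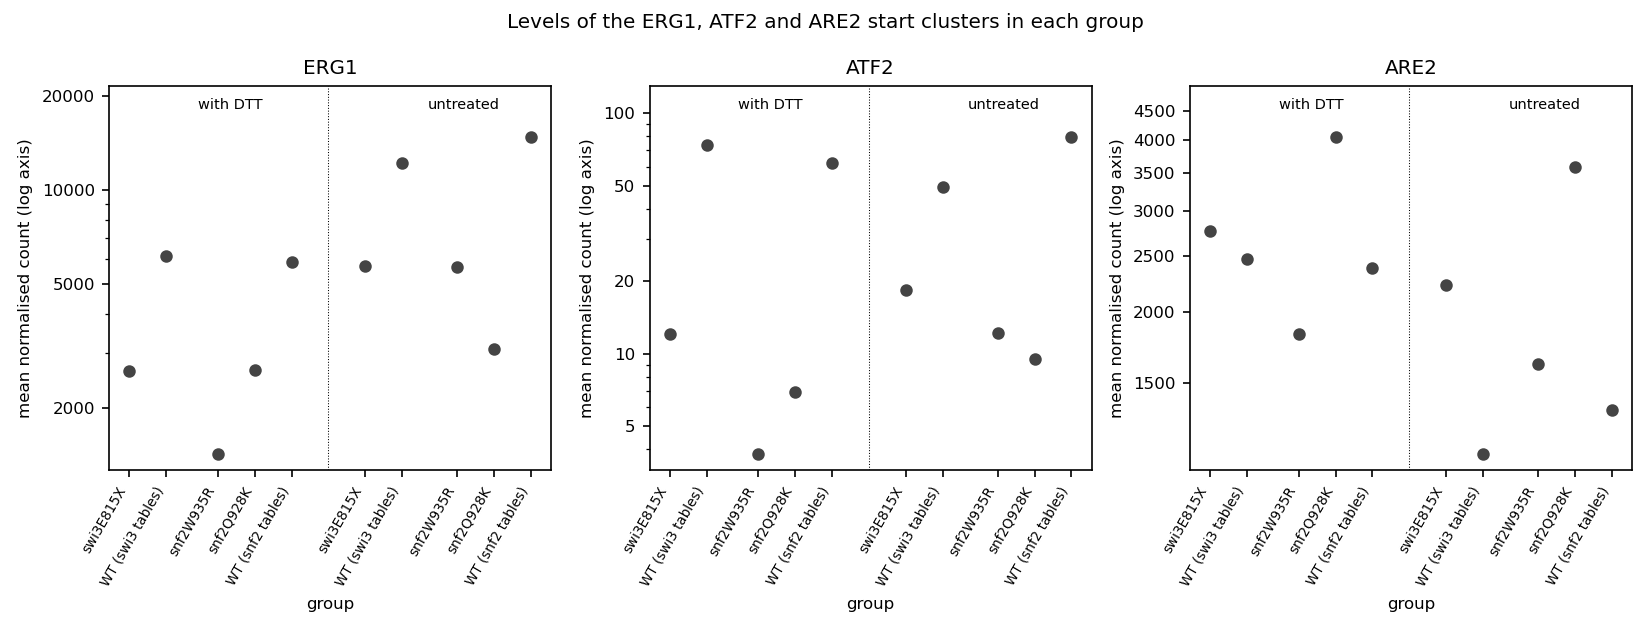
Mean normalized counts (log axes, each with its own range) of the ERG1, ATF2 and ARE2 clusters in each group, with DTT left and untreated right of the dotted line. Points are group means worked out from the deposited tables, with no spread. ERG1 and ATF2 are lower in each mutant than in the wild-type libraries of its tables, and ARE2 is highest in snf2Q928K.

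ERG27, the 3-keto reductase of C-4 demethylation, has 2 start clusters. The main one is at chrXII:341784-341787, 24.5 bp upstream of the coding start. The other is at chrXII:341611-341640, 184.5 bp upstream and 22 bp past the coding end of the upstream neighbour MIM2. Its RefSeq bases, printed without capitals, are shown because the change rests on this short stretch.
ERG27 upstream cluster: catatagcagttataacagataaatggcac
RNA that starts at the middle of this cluster carries 3 ATGs before the ERG27 coding start. They open reading frames of 12, 3 and 7 codons that all stop before it. The first ATG, 176 bp before the coding start, lies inside the cluster, so RNA that starts after it lacks the frame of 12 codons. RNA from the main cluster carries 0.

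In wild type the upstream ERG27 cluster had 67.9 counts with DTT and 2.12 untreated, a log2 fold change of 5.00 ± 0.84 (95% interval 3.36 to 6.64, adjusted p = 3.9e-08) in the authors' deposited table. Both wild types showed it. It is a minor start, with 0.771% of the ERG27 counts in the swi3-table and 1.01% in the snf2-table wild type with DTT. In DTT-treated cells this cluster had 31.7 counts in swi3E815X, against 56.3 in wild type, and 14.7 in snf2W935R and 1.44 in snf2Q928K, against 79.5 in wild type. The authors' deposited tables give −0.83 ± 0.63 (swi3E815X, not called), −2.44 ± 0.81 (snf2W935R, adjusted p = 0.0485) and −5.79 ± 1.03 (snf2Q928K, adjusted p = 7.1e-07). The snf2W935R call sits close to the threshold. The difference of snf2Q928K minus snf2W935R with DTT was −3.35 ± 1.31 (unadjusted p = 0.0103, adjusted p = 1.00), which was not called.

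The main ERG27 cluster went the other way in snf2Q928K. With DTT it had 19402 counts there, 13429 in snf2W935R and 7811 in the snf2-table wild type, and 10446 in swi3E815X, against 7236 in wild type. The authors' deposited tables give 1.31 ± 0.22 (snf2Q928K, adjusted p = 7.8e-08), 0.78 ± 0.30 (snf2W935R, adjusted p = 0.116), and 0.53 ± 0.26 (swi3E815X, adjusted p = 0.622). Only the snf2Q928K value passed. The upstream minus the main cluster was −7.10 ± 1.05 in snf2Q928K (adjusted p = 8.0e-10) and −3.22 ± 0.86 in snf2W935R (adjusted p = 0.00671) with DTT, and 5.08 ± 0.86 for DTT against untreated wild type (adjusted p = 9.3e-08). Untreated, the upstream cluster had at most 2.56 counts in every group, and the main one had between 6641 (swi3E815X) and 9682 (snf2Q928K).

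ERG11 and ERG3 each have a second start that was higher in both snf2 mutants under both treatments. In ERG11 the main cluster is at chrVIII:121816-121866, 158 bp from the coding start, and the second one is nearer, at chrVIII:121687-121736 and 28.5 bp from it. With DTT the near cluster had 481 counts in swi3E815X, against 204 in wild type, and 610 in snf2W935R and 1412 in snf2Q928K, against 208 in wild type. Untreated, it had 333 counts in swi3E815X, against 212 in wild type, and 791 in snf2W935R and 2106 in snf2Q928K, against 176 in wild type. Both wild-type sets were within 176 to 212 counts and each mutant lies above them. It passed in 5 of the 6 mutant comparisons. In the authors' deposited tables the near cluster had 1.23 ± 0.32 in swi3E815X, 1.56 ± 0.41 in snf2W935R and 2.77 ± 0.28 in snf2Q928K with DTT. Untreated, the authors' deposited tables give 0.65 ± 0.40 (swi3E815X, adjusted p = 0.656), 2.16 ± 0.62 (snf2W935R) and 3.58 ± 0.56 (snf2Q928K, adjusted p = 2.0e-08).

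The main ERG11 cluster passed in no mutant comparison, and had 2675 counts in snf2Q928K with DTT, against 2870 in wild type, and 5163 untreated, against 7612 in wild type. The near cluster held 34.5% of the ERG11 counts in snf2Q928K with DTT, against 6.75% in wild type, and 29.0% untreated, against 2.27% in wild type. The share in snf2W935R was 29.3% with DTT and 6.39% untreated. The near minus the main cluster was 2.87 ± 0.41 in snf2Q928K with DTT and 4.14 ± 0.79 untreated (adjusted p = 1.2e-10 and 8.5e-06). With DTT it was 2.52 ± 0.64 in snf2W935R and 1.95 ± 0.46 in swi3E815X (adjusted p = 0.00311 and 0.00278). In wild type, DTT against untreated, the pair differed by 1.49 ± 0.53 (adjusted p = 0.0373), the near cluster holding 206 counts with DTT and 194 untreated while the main one fell.

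ERG3 (YLR056W), the C-5 desaturase, has 3 clusters: the main one 52 bp upstream of the coding start, one 180 bp upstream at chrXII:253673-253689, and one 27 bp inside the coding region. The far upstream cluster begins right after the window printed above that holds both TCGTATA elements. Its RefSeq bases are shown to place it.
ERG3 far upstream cluster: acggtcgaaagaaacat
RNA from it carries 0 ATGs before the ERG3 coding start. With DTT it had 184 counts in swi3E815X, against 78.4 in wild type, and 303 in snf2W935R and 253 in snf2Q928K, against 55.2 in wild type. Untreated, it had 120 counts in swi3E815X, against 65.4 in wild type, and 251 in snf2W935R and 182 in snf2Q928K, against 50.9 in wild type. Each mutant lies above both wild-type sets, whose levels spanned 50.9 to 78.4. The snf2 mutants passed in all 4 of their comparisons: 2.46 ± 0.50 (snf2W935R) and 2.20 ± 0.43 (snf2Q928K) with DTT, and 2.30 ± 0.55 (snf2W935R) and 1.84 ± 0.56 (snf2Q928K) untreated, in the authors' deposited tables. In swi3E815X the values were 1.23 ± 0.40 with DTT and 0.88 ± 0.65 untreated (adjusted p = 0.134 and 0.757, authors' deposited tables).

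At the main ERG3 cluster, snf2Q928K with DTT had 4425 counts, against 7961 in wild type (−0.85 ± 0.30, adjusted p = 0.0361, authors' deposited table). The same cluster held 3852 counts in snf2W935R with DTT, and 3605 in swi3E815X, against 6486 in wild type, values that did not pass. The far minus the main cluster with DTT was 3.50 ± 0.62 in snf2W935R, 3.05 ± 0.52 in snf2Q928K and 2.07 ± 0.50 in swi3E815X, all past the threshold. Untreated, it passed in snf2W935R at 2.00 ± 0.63 (adjusted p = 0.0440). The cluster inside ERG3 had 42.3 counts in snf2Q928K with DTT, against 2.42 in wild type. The log2 fold change was 4.13 (95% interval 1.68 to 6.57, adjusted p = 0.00992, authors' deposited table), with a wild-type mean under 3 counts. Untreated, it had 40.1 counts in snf2Q928K and worked out at about 0 in the snf2-table wild type (adjusted p = 0.00293, authors' deposited table), so no fold is given. The swi3-table wild type held 10.05 counts there untreated.

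**Figure D3:**
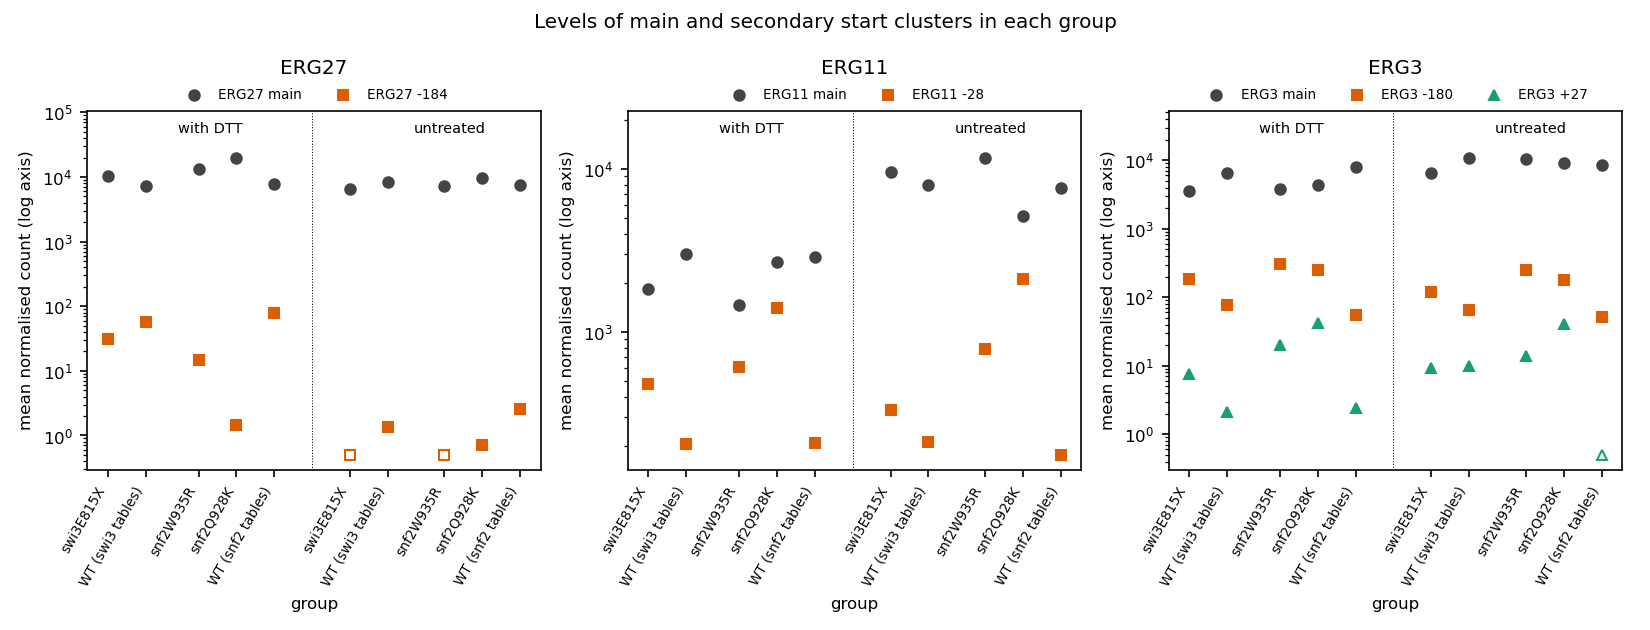
Mean normalized counts (log axes, each with its own range) of the main and secondary clusters of ERG27, ERG11 and ERG3 in each group, with DTT left and untreated right of the dotted line. Points are group means worked out from the deposited tables, with no spread, and an open symbol is a level under 0.5 drawn at 0.5. The second ERG11 and the far ERG3 clusters sit higher in the snf2 mutants than in wild type, and the upstream ERG27 cluster is at 1.44 counts in DTT-treated snf2Q928K, against 79.5 in wild type.

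In 5 of the 11 pairs the secondary and main clusters changed unequally in wild type with DTT, against 14.3% of all 657 pairs tested. Besides ERG27 and ERG11 these were clusters inside coding regions. ERG20 (YJL167W), farnesyl pyrophosphate synthase, had 93.9 counts with DTT and 2.80 untreated at a cluster 292.5 bp inside (5.07 ± 0.92, 95% interval 3.26 to 6.87, authors' deposited table), while its main cluster had −0.12 ± 0.31. ERG7 (YHR072W), lanosterol synthase, had 261 counts with DTT and 42.6 untreated at a cluster 379 bp inside (2.62 ± 0.53, authors' deposited table). ARE1 had 865 counts with DTT and 98.4 untreated at a cluster 1631.5 bp inside (3.14 ± 0.34, adjusted p = 2.2e-18, authors' deposited table). These RNAs lack the first part of the gene, and the ARE1 RNA lacks most of it. The first in-frame ATG is codon 131 of 352 for ERG20, codon 226 of 731 for ERG7 and codon 604 of 610 for ARE1. Whether the ARE1 cluster belongs to a gene downstream was not tested.

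None of these 3 clusters passed in a mutant comparison. With DTT, the inside cluster held 4.53% to 8.80% of the ERG20 counts in the 3 mutants, against 6.64% and 9.55% in the swi3-table and snf2-table wild types. It held 24.2% to 37.1% of the ERG7 counts in the mutants, against 34.8% and 32.4% in these wild types, and 22.2% to 41.3% of the ARE1 counts, against 30.3% and 21.2%. The inside starts were thus present in all 3 mutants with DTT. The clusters inside NCP1 (YHR042W), the P450 reductase, passed in no comparison and had mean levels of 23.5, 68.4 and 41.4 counts over the tables.

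In the mutant comparisons, the pairs that passed numbered 2 of 11 in swi3E815X (2.59% of all pairs), 3 in snf2W935R (5.94%) and 4 in snf2Q928K (15.1%) with DTT. Untreated, 0 passed in swi3E815X (1.08% of all pairs), 1 in snf2W935R (3.69%) and 2 in snf2Q928K (6.43%). All of them belong to ERG11, ERG3 and ERG27.

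**Figure D4:**
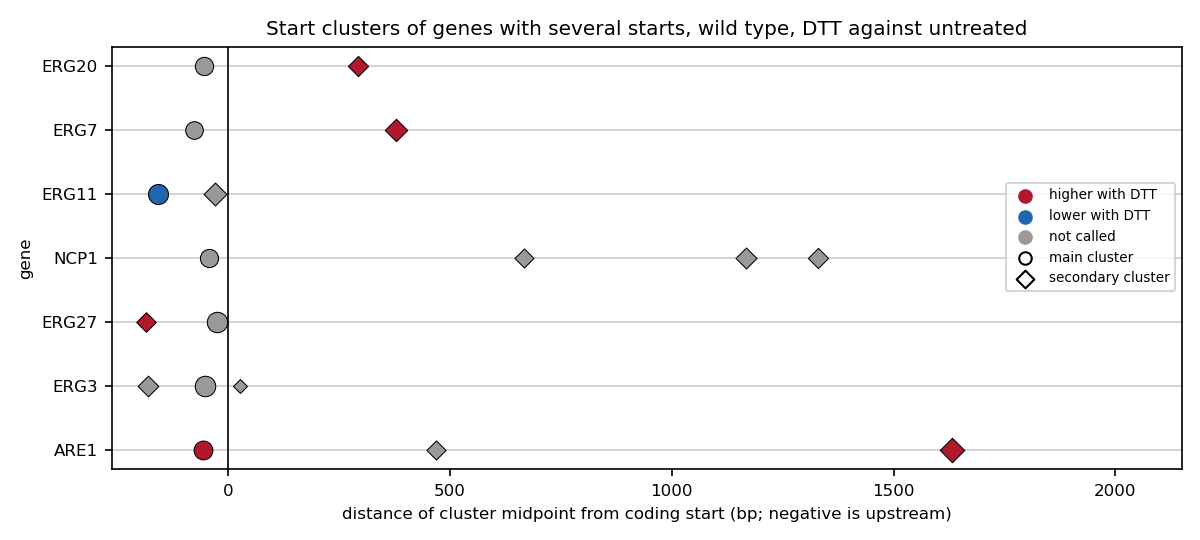
Position of each cluster (bp from the coding start, negative upstream) for the 7 members with several clusters, coloured by its call in DTT-treated against untreated wild type. Symbol size grows with the log of the mean normalized count. The inside clusters of ERG20, ERG7 and one of ARE1 are higher with DTT, as is the upstream cluster of ERG27, and the main ERG11 cluster is lower.

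Of the 3 mutants, snf2Q928K had the most calls among the sterol genes, as it did among all clusters. Untreated, the authors' deposited table holds 8 of 40 member clusters (20.0%) as higher, against 2.82% of all, and 3 (7.5%) as lower, against 3.74%. Besides the 3 secondary clusters of ERG11 and ERG3, these are the main clusters of 2 mevalonate genes, 2 late genes and 1 ester gene. ERG10 (YPL028W), acetoacetyl-CoA thiolase, had 5217 counts in snf2Q928K, against 2614 in wild type (1.00 ± 0.32, adjusted p = 0.0308, authors' deposited table). MVD1 had 2212, against 1203 in wild type (0.88 ± 0.28, adjusted p = 0.0333, authors' deposited table). ERG2 (YMR202W), the sterol C-8 isomerase and the member with the most counts, had 70712, against 34207 in wild type (1.05 ± 0.32, adjusted p = 0.0188, authors' deposited table). ERG4 had 1279, against 638 in wild type (1.00 ± 0.31, adjusted p = 0.0206, authors' deposited table). ARE2 had 3580, against 1343 in wild type (1.41 ± 0.29, adjusted p = 9.5e-05, authors' deposited table).

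The untreated swi3-table wild type held 3022 counts of ERG10, 1548 of MVD1, 48903 of ERG2, 1455 of ERG4 and 1126 of ARE2. The ERG4 level of snf2Q928K thus lies between the 2 wild-type sets, and the other 4 lie above both. The 3 lower clusters were ERG1, ATF2 and IDI1. IDI1 had 539 counts in snf2Q928K, against 1376 in wild type (−1.35 ± 0.42, adjusted p = 0.0266, authors' deposited table), and the swi3-table wild type held 668. With DTT the value of IDI1 in snf2Q928K was 0.39 ± 0.42 (authors' deposited table).

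With DTT, 6 of 40 member clusters (15.0%) were higher in snf2Q928K, against 7.34% of all, and 4 (10%) were lower, against 7.18%, in the authors' deposited table. Main clusters among the higher ones were ERG27, ERG7 and ARE2. ERG7 had 889 counts, against 384 in wild type (1.21 ± 0.29, adjusted p = 6.5e-04, authors' deposited table), and the swi3-table wild type held 634. ARE2 had 4053 counts, against 2383 in wild type (0.77 ± 0.24, adjusted p = 0.0144, authors' deposited table). The lower ones were ERG1, ATF2, the main ERG3 and the upstream ERG27 cluster.

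In the authors' deposited tables of snf2W935R, 2 member clusters (5.0%) were higher with DTT, against 2.54% of all, and 5 (12.5%) were lower, against 2.83%. Untreated, 2 (5.0%) were higher, against 0.945% of all, and 1 (2.5%), ERG1, was lower, against 1.79%. The higher ones were the second ERG11 and the far ERG3 clusters under both treatments. ERG6 (YML008C), the C-24 methyltransferase, had 755 counts with DTT, against 1711 in wild type (−1.18 ± 0.35, adjusted p = 0.0196, authors' deposited table). The main cluster of NCP1, which passes electrons to ERG11 and ERG1, had 413 counts with DTT, against 1177 in wild type (−1.51 ± 0.48, adjusted p = 0.0364, authors' deposited table). The swi3-table wild type held 1755 counts of ERG6 and 994 of NCP1 with DTT, so both snf2W935R levels lie below both wild types. Untreated, neither passed, with 0.07 ± 0.41 for ERG6 and −0.0033 ± 0.41 for NCP1 in the authors' deposited table.

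In swi3E815X few clusters of any gene passed. With DTT, 1 member cluster (2.5%), the second ERG11 one, was higher, against 0.212% of all, and 2 (5.0%), ERG1 and ATF2, were lower, against 1.17%. Untreated, ARE2 was higher (0.463% of all were) and ERG1 lower (1.35% of all were). ARE2 had 2225 counts in swi3E815X, against 1126 in wild type (0.98 ± 0.29, adjusted p = 0.0369, authors' deposited table). In DTT-treated cells ARE2 had 2775, against 2477 (0.16 ± 0.26, authors' deposited table). The log2 difference of ARE2 with DTT against untreated was 0.32 in swi3E815X, 0.17 in snf2W935R and 0.18 in snf2Q928K, against 1.14 and 0.83 in the swi3-table and snf2-table wild types. Mutant effects with DTT minus untreated were −0.82 ± 0.39 in swi3E815X (unadjusted p = 0.0360, adjusted p = 0.999), −0.65 ± 0.49 in snf2W935R (adjusted p = 0.727) and −0.65 ± 0.38 in snf2Q928K (adjusted p = 0.600), and none was called.

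Of the members with a cluster, 8 passed in none of the 7 tables. They are HMG2, ERG12 (YMR208W, mevalonate kinase), ERG8 (YMR220W, phosphomevalonate kinase), ERG9 (YHR190W, squalene synthase), ERG24 (YNL280C, C-14 reductase), ERG26, ERG29 (YMR134W) and ECM22 (YLR228C). In the authors' deposited tables their fold changes ran on the log2 scale from −0.78 (HMG2, snf2W935R untreated) to 1.83 (ECM22, snf2Q928K with DTT). ECM22 is a weak cluster, with 61.7 counts in swi3E815X with DTT, against 28.9 in wild type, and 35.7 in snf2W935R and 69.4 in snf2Q928K, against 19.5 in wild type. All 6 of its mutant values were above 0, and the widest SE among them was 1.08.

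**Figure D5:**
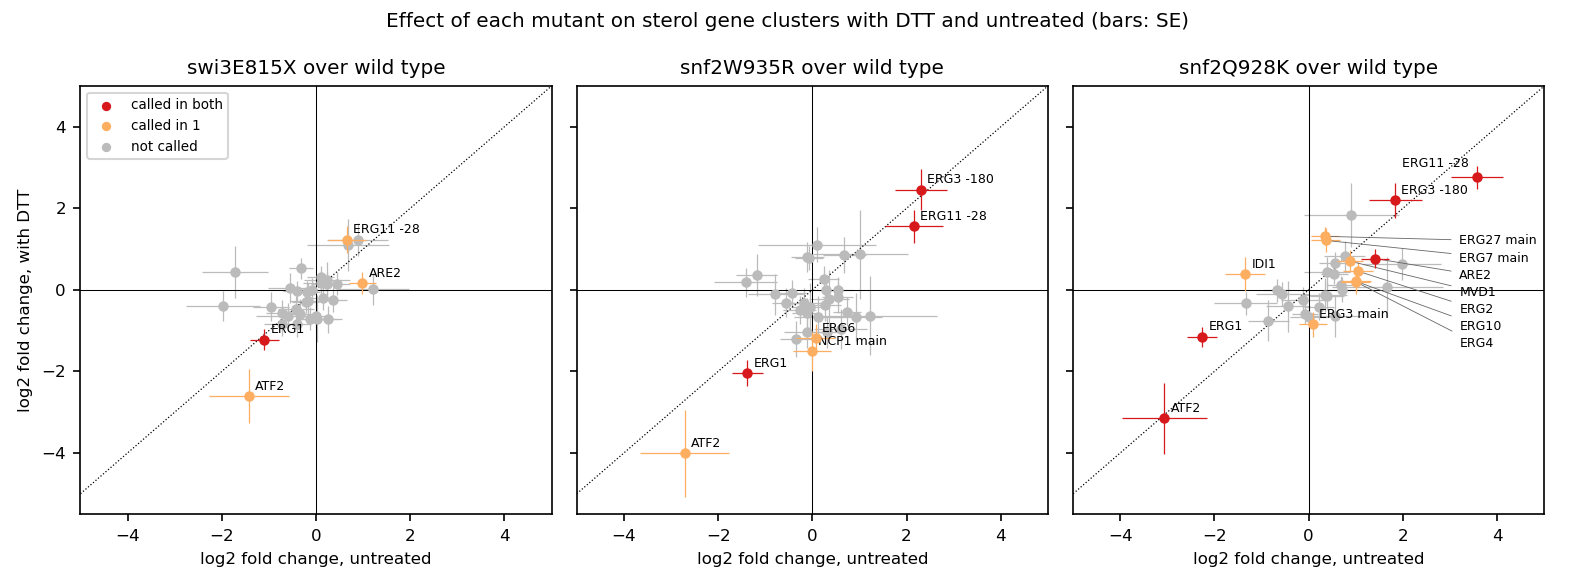
Log2 fold change of each mutant over wild type with DTT (y axis) against untreated (x axis) for the 34 member clusters whose SE is under 1.5 in every table, with bars of 1 SE. Red points were called under both treatments, orange under 1 and grey under neither. ERG1 lies in the lower left of all 3 panels, and the second ERG11 cluster lies in the upper right.

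No member cluster passed a test of whether a mutant effect differed between DTT and untreated cells. These tests take the difference of the log2 fold changes of the authors' deposited tables with summed squared SEs and adjust over all clusters. The summed error ignores that DTT-treated and untreated flasks were split from the same cultures. The share of all clusters that passed was 0.0386% for swi3E815X, 0.869% for snf2W935R and 1.41% for snf2Q928K. At an unadjusted p under 0.05 there were 4 of 40 member clusters (10%) for swi3E815X, against 3.82% of all clusters. For snf2W935R there were 8 (20%), against 10.3%, and for snf2Q928K 5 (12.5%), against 10.4%. Among members, the smallest unadjusted p in snf2Q928K was that of IDI1, with 1.74 ± 0.60 (adjusted p = 0.125). In snf2W935R the 2 smallest were those of the main ERG3 cluster, with −1.35 ± 0.49 (adjusted p = 0.188), and of ERG24, with −1.27 ± 0.47 (adjusted p = 0.204).

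Both snf2 substitutions lie in the ATPase subunit, and snf2Q928K minus snf2W935R was tested in the same way. No member cluster passed, against 0.289% of all clusters with DTT and 0.174% untreated. With DTT, 7 of 40 member clusters (17.5%) had an unadjusted p under 0.05, against 3.02% of all clusters. Untreated, 1 did (2.5%), against 1.80%, which is near the share of all clusters. The tables share their wild-type libraries, so the summed error is too wide for this difference. With SEs rebuilt for the mutant arms alone, ARE2 differed by 1.15 (adjusted p = 0.0279), ERG13 by 1.15 (adjusted p = 0.0253) and the second ERG11 cluster by 1.21 (adjusted p = 0.0438) with DTT. Untreated, ARE2 differed by 1.14 (adjusted p = 0.0382). The share of all clusters that passed with rebuilt SEs is not given here, so these calls have no background beside them. ARE2 had 4053 counts in snf2Q928K and 1829 in snf2W935R with DTT, and 3580 in snf2Q928K and 1622 in snf2W935R untreated. ERG13 had 1812 counts in snf2Q928K and 819 in snf2W935R with DTT.

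Of 41 other genes of sterol uptake, sterol transport, HMG-CoA reductase turnover, the prenyl branch, electron donation, ester hydrolysis and sterol acetylation, 26 had a main cluster. Only these main clusters are counted here, while the shares of all clusters also include secondary and intergenic ones. In wild type with DTT, 5 (19.2%) were higher, against 16.5% of all clusters, and 2 (7.69%) were lower, against 17.3%, in the authors' deposited table, with a median of 0.21. NUS1, a subunit of the dolichol-forming enzyme, rose by 2.10 ± 0.40, and HRD1 and UBC7, which act in the degradation of HMG-CoA reductase, rose by 1.30 ± 0.43 and 0.72 ± 0.27 (authors' deposited table). NCR1, a vacuolar sterol transporter, rose by 1.02 ± 0.40, and RAM2, a prenyltransferase subunit, by 0.72 ± 0.28 (authors' deposited table). The repressor ROX1 had −1.80 ± 0.39 and CYB5, cytochrome b5, had −1.07 ± 0.31 (authors' deposited table). CYB5, like NCP1 an electron donor, was also lower in snf2W935R with DTT (−1.92 ± 0.47, adjusted p = 0.00231, authors' deposited table), the one call there (3.85%, against 2.83% of all clusters). Calls in snf2Q928K with DTT were 2 higher (7.69%, against 7.34%) and 1 lower (3.85%, against 7.18%), and untreated 1 higher (3.85%, against 2.82%). In snf2Q928K with DTT, the sterol importer AUS1 (2.23 ± 0.75) and ROX1 (1.57 ± 0.57) were higher and NUS1 (−1.12 ± 0.35) was lower (authors' deposited table). The AUS1 cluster lies inside its coding region. Untreated, ATF1, the paralogue of ATF2, was higher in snf2Q928K (2.22 ± 0.68, authors' deposited table). None passed in swi3E815X under either treatment or in untreated snf2W935R.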

How the data were processed

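TL-seq libraries of 5 genotypes were processed by the authors with cutadapt, HISAT2 and DESeq2 against sacCer3 (R64), per the submitters' processing notes. Each of the 7 deposited tables lists 5195 consensus start clusters. Per the file headers, the authors deposited the mean normalized count (a normalized signal), the log2 fold change and its standard error, the Wald test score and the p-value, raw and adjusted. Values and depths per library are not used here, so no interval or spread per library is given. The mean normalized counts of a table sum to between 5901941 and 7516016.

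From these, arm means were derived as 2 × mean / (1 + fold), assuming arms of equal size, and levels were set on the scale of the wild-type table. That both wild-type sets add up to the wild-type table (robust SD of the residual 0.00119 with DTT and 0.0016 untreated, log2) is how the sets were told apart, since no label names the libraries in a table. Levels under 0.5 were set to 0, and no fold is given against them. Difference and pair tests are two-sided normal tests with summed squared standard errors, Benjamini-Hochberg adjusted over all clusters or pairs. The pair test ignores that both clusters come from the same libraries. The test of DTT minus untreated was run on simulated data with independent errors and clusters of at least 50 mean counts. The pair tests and the test of snf2Q928K minus snf2W935R were not simulated. Python 3.11.15, pandas 2.3.3, numpy 2.4.6, scipy 1.17.1 and matplotlib 3.10.9 were used. Members with a call in any table are named with their values, the others by range. Members and lists were chosen with earlier results of these data known.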

Additional observations from a re-analysis of the deposited data

How the results depend on the processing

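Each count was recomputed under a stricter threshold, a 2-fold minimum, a minimum of 50 mean counts, main clusters alone, upstream clusters alone and, for difference tests, rebuilt standard errors. At an adjusted p under 0.01, member calls came to 4 in place of 7 (snf2W935R with DTT), 4 in place of 11 (snf2Q928K untreated) and 0 in place of 2 (swi3E815X untreated), and pairs to 0 in place of 1 (snf2W935R untreated). A 2-fold minimum left 1 call in swi3E815X untreated. Main clusters alone gave 4 (snf2W935R with DTT), 6 in place of 10 (snf2Q928K with DTT) and 1 in place of 3 (snf2W935R untreated). With at least 50 counts, pairs came to 3 in place of 5 (wild type) and 1 in place of 2 (snf2Q928K untreated). Rebuilt errors gave 3 calls with DTT and 1 untreated in place of 0 for snf2Q928K minus snf2W935R. The other counts stayed within 1.5 times. These shifts follow from fewer clusters, stricter limits or smaller errors. The share of all clusters called under each of these settings is not given here, so the recomputed counts have no background beside them. No paired analysis was possible because the tables hold no values per library, and for the same reason no replicate could be left out. Clusters under about 100 mean counts, such as ATF2, ECM22, the upstream ERG27 and the inside ERG3 cluster, carry the widest errors.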
